A study of Mus musculus with 4 samples.

Results

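Spp1 encodes osteopontin, a secreted, phosphorylated glycoprotein of the extracellular matrix and of body fluids. Osteopontin carries an RGD motif through which it binds integrins such as those of the alpha v class, and it also binds the hyaluronan receptor CD44. Thrombin and matrix metalloproteases cleave it, transglutaminases crosslink it, and the kinase encoded by Fam20c phosphorylates it. It is made by bone cells, macrophages, several epithelia and activated fibroblasts, and its transcription is known to respond to growth factors that act through the Ras and ERK pathway.

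The probes of Spp1 were found from the probe identifiers, in which the number after the prefix and its leading zeros was read as an NCBI gene number (20750 for mouse Spp1). This reading of the identifiers is an inference. It gave 1 gene of 8131 that could be named, with 1 probe of 46116 and 0 probes of the opposite strand. The gene lies on mouse chromosome 5 between 104435111 and 104441053 (GRCm38.p6). Which exon or transcript the probe matches was not analysed here. Spp1 was selected on its raw signal and on its near equal log2 change at each dose, so these values are given as a description with no test.

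The cells were mitomycin C-inactivated embryonic fibroblasts of CF1 mice, the kind of non-dividing feeder layer on which human embryonic stem cells are grown. All cultures were seeded on a gelatine coat (55000 cells per square centimetre) and spent 24 h in serum replacement-based stem cell medium. That medium held no added FGF2 on the 3 control arrays, which the labels call biological replicates, and 4, 13 or 40 ng/ml of FGF2 on 1 array each. FGF2 is basic fibroblast growth factor. From 300 ng of total RNA, amplified for 6 h by in vitro transcription, Cy3-labelled RNA was hybridised to 1-colour Illumina bead arrays. No dose had a second array, so the spread between cultures at a given dose was not measured.

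The 6 arrays were alike in depth, with median signals of 102.5 to 113.6 and 11195 to 11698 detected probes. Of 16 fibroblast markers 6 had a named probe, and all 6 were detected. These were the collagen genes Col1a1, Col1a2 and Col3a1, the proteoglycan gene Dcn, S100a4 and the mesenchymal transcription factor gene Prrx1. Because whole cultures were measured, more cells making osteopontin and more Spp1 RNA per cell cannot be told apart.

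The region upstream of Spp1 is shown because several transcription factors known to act on this gene were measured on the arrays and are described further on. It is the 250 bases before the first of 2 annotated starts, on the + strand at chr5:104434861-104435110, from RefSeq (GRCm38.p6). Capitals mark the matches to 5 motifs searched on both strands.
Spp1 upstream: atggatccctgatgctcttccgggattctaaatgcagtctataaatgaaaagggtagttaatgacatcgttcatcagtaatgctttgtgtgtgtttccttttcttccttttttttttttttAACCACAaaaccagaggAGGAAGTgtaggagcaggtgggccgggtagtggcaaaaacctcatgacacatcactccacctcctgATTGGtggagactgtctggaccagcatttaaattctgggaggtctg
The Runx motif AACCACA matched once, with its first base 129 bases before the start, as in 4.4% of 32851 such upstream regions. The ETS motif AGGAAGT matched once, with its first base 112 bases before the start, as in 7.69% of the regions. The CCAAT box matched once, on the opposite strand at 46 to 42 bases before the start, as in 33.85% of the regions. Neither the AP-1 motif TGANTCA, found in 6.75% of the regions, nor the USF E-box CACGTG, found in 6.02%, had a match in this window. No match overlapped another. A match describes these letters and shows no binding.

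Spp1 was already a bright probe in untreated feeder cells. Its raw signal, an intensity on a linear scale without background subtraction, was 4201.6, 4244.7 and 4493.3 on control replicates 1, 2 and 3 (mean 4313 ± 157, SD, n = 3). The highest control was 6.94% above the lowest. The detection score of the probe (its place among that array's negative control probes) was 1 on all 6 arrays. On the controls the probe ranked 508 to 537 of 46116, so that at most 1.16% of the probes were brighter.

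With FGF2 the probe was several times brighter at every dose. Its raw signal was 23093.3, 26522.3 and 22601.7 with 4, 13 and 40 ng/ml. These are 5.35, 6.15 and 5.24 times the control mean. The groups did not overlap, and the lowest FGF2 array was 5.03 times the highest control. Over the 9 pairs of an FGF2 and a control array, the ratio ranged from 5.03 to 6.31.

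**Figure D1:**
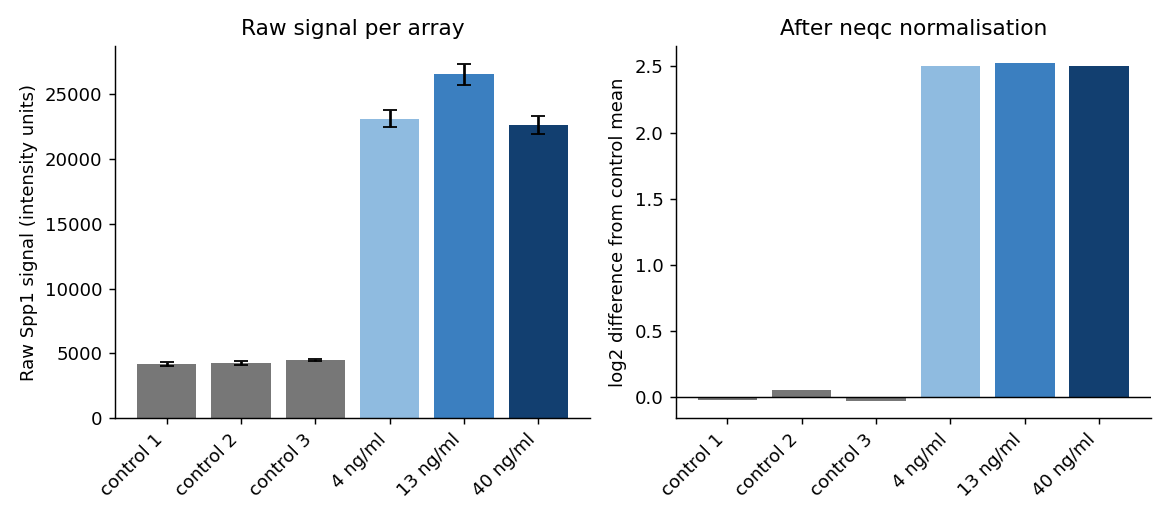
Spp1 on each of the 6 arrays: the left panel plots the raw signal in intensity units, with error bars of 1 bead standard deviation on that array, and the right panel plots the log2 difference from the control mean after neqc normalisation. The 3 controls lie between 4201.6 and 4493.3 and the 3 FGF2 arrays between 22601.7 and 26522.3, and after normalisation the 3 doses are within 0.02 of each other.

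The step from 0 to 4 ng/ml held nearly all of the difference. After background correction and quantile normalisation (neqc), the log2 difference from the control mean was 2.50, 2.53 and 2.50 with 4, 13 and 40 ng/ml. The 3 doses spanned 0.02 on the log2 scale, while the SD of the 3 controls was 0.04. As folds these values are 5.67, 5.76 and 5.67. Quantile normalisation gives probes of equal rank the same value, and Spp1 ranked 48, 46 and 48 on the 3 FGF2 arrays, so the near identity of the normalised values restates its near identical ranks.

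Before normalisation the order of the doses was 13, then 4, then 40 ng/ml. The raw signal at 13 ng/ml was 14.8% above that at 4 ng/ml, and the signal at 40 ng/ml was 2.13% below it. The 39 probes brighter than Spp1 on every FGF2 array had a median ratio of 1.09 between 13 and 4 ng/ml, against 1.15 for Spp1. Their median ratio between 40 and 4 ng/ml was 0.986, against 0.979 for Spp1.

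Other ways to set the arrays on a common scale left gaps of different size between the doses. When the background-corrected signals were scaled to the same median, the log2 differences from control were 2.48, 2.58 and 2.48 in order of dose. In the authors' deposited table the Spp1 values were 4229 for the control mean and 24144, 26062 and 25048 with 4, 13 and 40 ng/ml, which gives folds of 5.71, 6.16 and 5.92. In each of these scalings the Spp1 value was highest at 13 ng/ml. With 1 array per dose these gaps have no replicate check.

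No other probe on the array gained as much raw signal. The mean over the FGF2 arrays exceeded the control mean by 19759 units for Spp1, the largest increase of all 46116 probes. An unnamed probe followed with 19640 units, and the next named gene was the cyclin gene Ccnd1 with 11116 units. Ratios give another order, since probes dim in the controls can rise by larger factors. By its mean normalised log2 difference over the 3 doses (2.51), Spp1 was number 6 of 3484 named genes and number 24 of 11763 tested probes.

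Spp1 came into the brightest 0.102% of the array with FGF2 but stayed well below its maximum. Only 47, 45 and 47 probes were brighter at 4, 13 and 40 ng/ml. Brightness depends on the probe sequence as well as on the RNA, so this rank places Spp1 within the range of the scanner and is not a ranking of transcript abundance. The brightest probe, that of the ribosomal protein gene Rpl41, read 49503.7, 55390.4 and 49244.2 on these arrays. Spp1 reached 46.6%, 47.9% and 45.9% of that value.

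**Figure D2:**
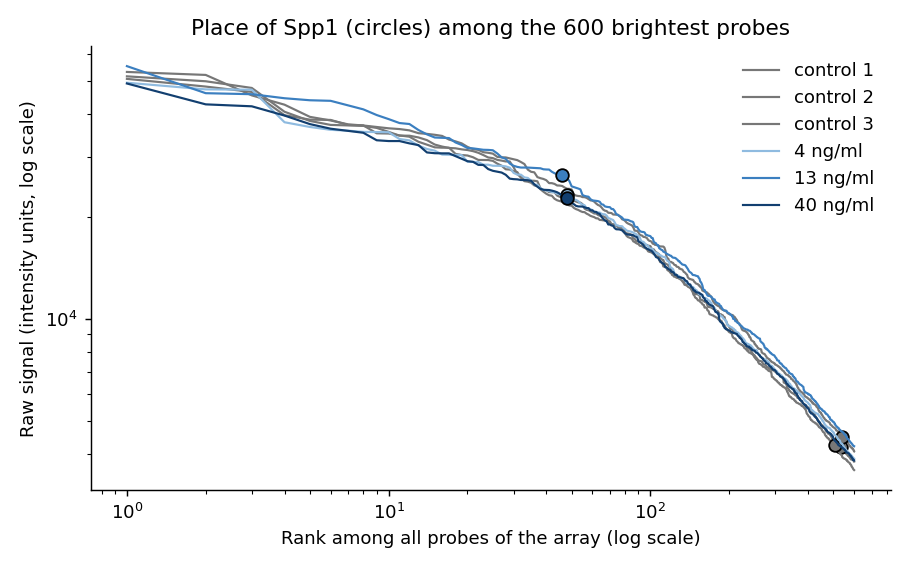
The brightest probes of each array are drawn as a line, raw signal in intensity units against rank, both on log scales, and a circle marks Spp1 on each line. The 3 control circles lie at ranks 508 to 537 and the 3 FGF2 circles at ranks 46 to 48, below a stretch of brighter probes that goes on rising to the left.

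Signals above that of Spp1 still differed between arrays. Between 13 and 4 ng/ml, the raw ratio of the 39 brighter probes ran from 0.886 to 1.49, the highest being that of the mitochondrial cytochrome b gene, CYTB. All 39 were also brighter than Spp1 on every control. Of the 19 with a gene name, 11 were cytosolic ribosomal protein genes. Their ratio of FGF2 to control had a median of 0.99 and reached 2.42 for an unnamed probe, and 2 of the 39 exceeded 1.5. The bead standard deviation was 2.87%, 3.08% and 3.10% of the Spp1 signal at 4, 13 and 40 ng/ml and 2.47% to 3.87% on the controls. Whether the scanner response is linear over this range was not tested.

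Most named genes that rose at 13 and 40 ng/ml had a smaller change at 4 ng/ml. A total of 75 named genes had a mean log2 change of at least 1 at 13 and 40 ng/ml, and for each the change at 4 ng/ml was expressed as a share of that mean. The comparison is a description, since all doses share the same controls and Spp1 was chosen for this feature. The median share was 68.7%, with quartiles of 54.0% and 75.6% and a range from 16.9% to 113%. Spp1 had a share of 99.6%, and 70 of the 75 genes had less than 90%. The cut on the higher doses leaves out some genes with a larger change at 4 ng/ml. With a minimum mean change of 0.5, 28 of 267 genes, Spp1 among them, had a share at or above that of Spp1.

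Among the 75 genes, those at or above Spp1 in this share are named here after their values were seen. They were Noct, which encodes nocturnin (113%), and Phactr4, which encodes a regulator of protein phosphatase 1 (107%). The log2 change of Noct was 1.82, 1.63 and 1.59 with 4, 13 and 40 ng/ml, so it was lower at the higher doses. That of Phactr4 was 1.27, 1.23 and 1.15. Measured without the controls, the mean of 13 and 40 ng/ml exceeded 4 ng/ml by 0.01 on the log2 scale for Spp1, against a median of 0.50 over the 75 genes. With the raw signals the share of Spp1 was 96.6% and the median 66.1%.

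**Figure D3:**
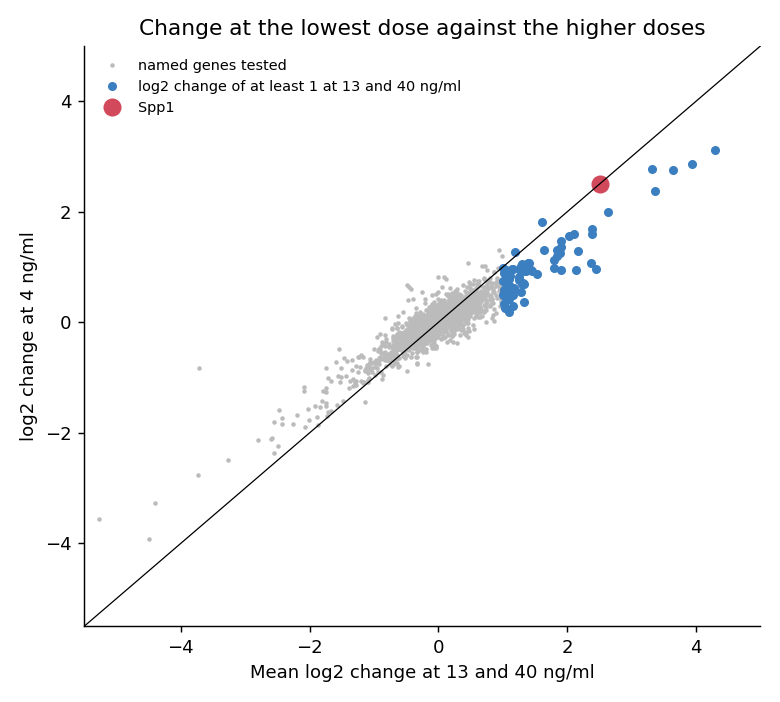
Each grey point is 1 of 3484 named genes, with its mean log2 change at 13 and 40 ng/ml on the horizontal axis and its log2 change at 4 ng/ml on the vertical axis, and the line marks equal changes. The 75 genes with a mean change of at least 1 are blue and mostly lie under the line, while Spp1 (red) lies on it.

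The 10 named genes with the nearest changes at the 3 doses, by Euclidean distance over the 3 log2 changes, all had a smaller change at 4 ng/ml than at either higher dose. The nearest was Ptgs1, the cyclooxygenase of basal prostaglandin synthesis, at a distance of 0.55. Its raw signals were 252.3, 269.3 and 235.4 on the controls and 1014, 1612.8 and 1263.7 at 4, 13 and 40 ng/ml. The log2 changes of Ptgs1 were 1.996, 2.75 and 2.51, close to Spp1 at 40 ng/ml and lower at 4 ng/ml.

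The other near genes lay at distances of 0.86 to 1.43. In order they were Tmcc3, Rasa1 (a GTPase-activating protein for Ras), Etv1 (an ETS transcription factor), Lrig1 (a negative regulator of receptor tyrosine kinases) and Gzme (a granzyme). They were followed by Trbv31 (a T cell receptor segment), Sat1 (which acetylates polyamines), Glrx (glutaredoxin) and Ccnd1 (cyclin D1). Gzme and Trbv31 belong to multigene families, and whether their probes measured the named gene was not tested. Gzme was above Spp1 at every dose, with log2 changes of 2.78, 3.35 and 3.29, and a second Gzme probe had 2.76, 3.41 and 3.54. Rasa1 had 1.59, 2.37 and 2.38. Ccnd1, at 1.37, 1.84 and 1.98, was bright in the controls as Spp1 was, with signals of 4380.2 to 5813.6, and read 12139.4, 17958.6 and 17850.7 with FGF2. A second Tmcc3 probe, near the detection limit, had 0.09, 0.09 and 0.14. With scaling to the same median, the same 10 genes were nearest.

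**Figure D4:**
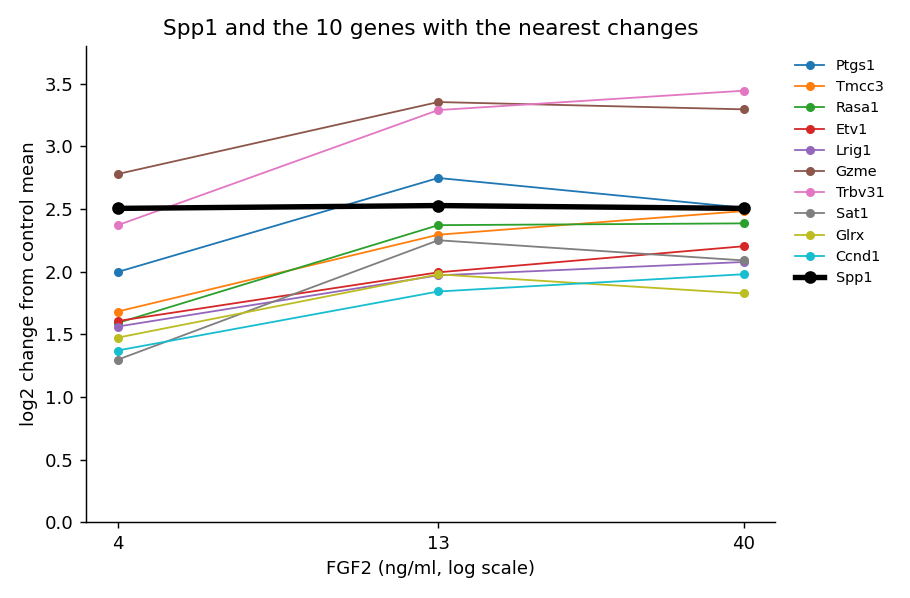
Log2 change from the control mean (vertical axis) at 4, 13 and 40 ng/ml of FGF2 (horizontal axis, log scale) for Spp1 in black and the 10 nearest named genes in colour, 1 array per dose. The line of Spp1 is level at 2.50 to 2.53, whereas the coloured lines climb between 4 and 13 ng/ml.

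The genes that act with osteopontin were taken from lists of its receptors, relatives, processing enzymes, regulators and fellow matrix ligands, with lists of bone and cell type markers. Of 155 listed genes 62 had a named probe and 34 were detected on at least 3 arrays and tested. The test set the 3 FGF2 arrays against the 3 controls with limma, which treats the 3 doses as 1 group (n = 3 per side). Of the 34, 7 were higher, 13 lower and 14 did not pass at an adjusted p of 0.05, where 36.8% of all 11763 tested probes passed (18.4% higher and 18.4% lower). The median log2 change was -0.13 over the 34 genes and 0.01 over all tested probes. Mmp12, Cd53, Krt18 and Postn were undetected in 1 of the groups, so they came into the test only through the group where they were bright. Of the other 30 genes 4 were higher, 12 lower and 14 did not pass, where 35.6% of the 11316 probes detected in both groups passed (18.1% higher and 17.6% lower), a count added after seeing the data. With scaling to the same median 6 were higher and 15 lower, and the share of higher among all called probes went from 50.1% to 37.9%.

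**Figure D5:**
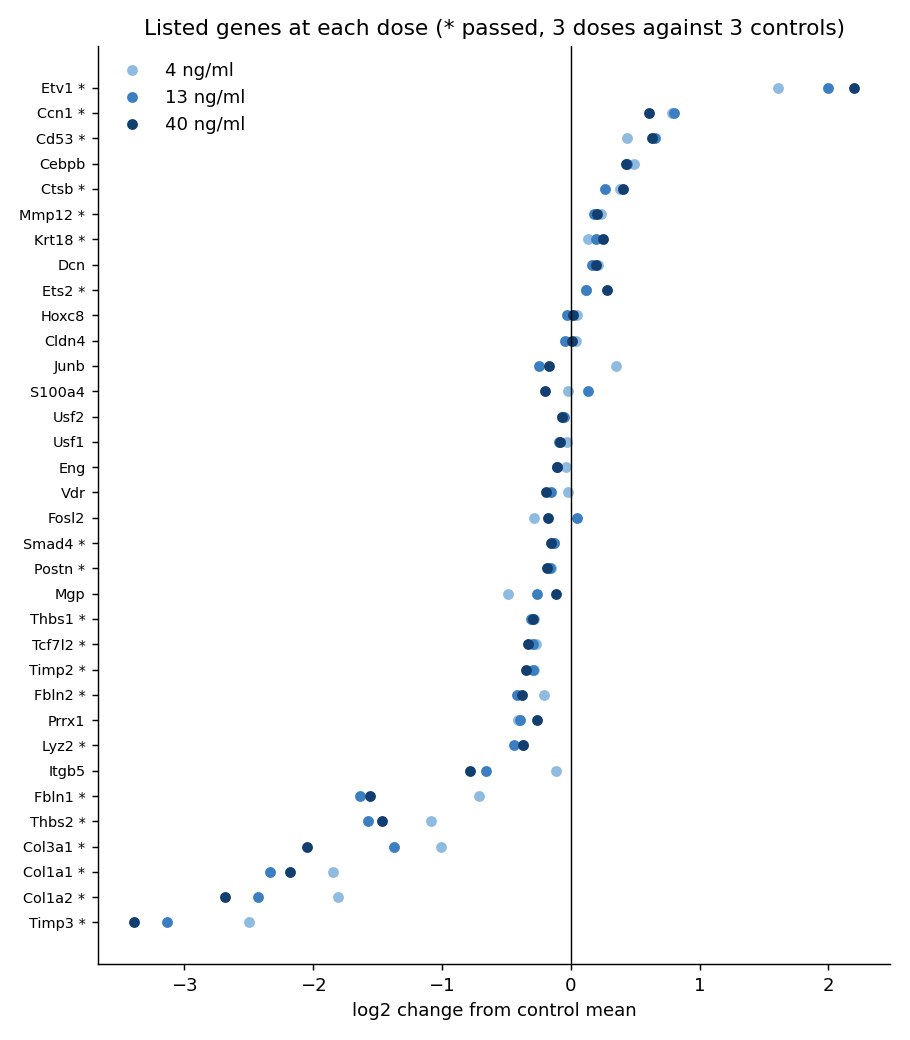
Log2 change from the control mean (horizontal axis) of the 34 listed genes tested, in order of their mean change, with 1 point for each of 4, 13 and 40 ng/ml and a star beside the genes that passed. Etv1 lies farthest to the right, Timp3 and the collagen genes Col1a2 and Col1a1 farthest to the left.

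The receptors of osteopontin were scarcely covered. Of 11 listed receptor genes 4 had a named probe, and only that of Itgb5, the integrin beta 5 chain that pairs with alpha v, was bright enough to test. Itgb5 read 2632.3, 2210.2 and 2367.8 on the controls and 2234.2, 1753.1 and 1456.8 at 4, 13 and 40 ng/ml. The array at 4 ng/ml lay within the controls and the other doses below them. Its log2 change was -0.52 ± 0.19 (SE of the fit, adjusted p = 0.0883), and with the lowest dose left out it was -0.72 (adjusted p = 0.00746). It also passed with the quantile-normalised raw signal, with normexp at either offset and with a trended prior (adjusted p from 0.0279 to 0.0381). Itgav, the alpha v chain, was detected on 2 arrays, those at 13 and 40 ng/ml, and the probes of Itga4 and Cd44 on none. None of the 4 relatives of osteopontin in the same family (Ibsp, Dmp1, Dspp and Mepe) had a named probe.

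Of the processing genes 4 were tested, and those detected in both groups were Timp3, Timp2 and Ctsb. All of these passed, where 35.6% of the 11316 probes detected in both groups did. Timp3 encodes a matrix-bound metalloprotease inhibitor and fell 8.04-fold (log2 -3.01 ± 0.24, adjusted p = 0.000972). The size of the Timp3 fall depended on the background method. Its log2 change was -2.44 with the quantile-normalised raw signal and -2.48 or -2.53 with normexp at an offset of 50 or 16. The raw Timp3 signals of 4400.9, 3745.3 and 5010.2 on the controls dropped to 1035.4, 824.1 and 640.4 in order of dose. The groups were far apart. A second, dimmer Timp3 probe fell by 0.91 on the log2 scale. Its raw signals were 503.9, 507.4 and 549.8 on the controls and 166.2, 137 and 135.1 in order of dose. The inhibitor gene Timp2 fell 1.24-fold, and the lysosomal protease gene Ctsb, which encodes cathepsin B, rose 1.28-fold (log2 0.35 ± 0.05). A dimmer Ctsb probe rose by 1.25 on the log2 scale. Mmp12, the macrophage metalloelastase, was undetected on all 3 controls (105.5 to 118.4) and read 214.5, 198.6 and 187.4 with FGF2. Its difference was at least 1.08-fold (adjusted p = 0.00325 in the fit of all 46116 probes with no detection filter). That bound is set by the lowest signal among detected probes. The thrombin gene F2 and the metalloprotease genes Mmp3, Mmp7 and Mmp9, whose products cleave osteopontin, had no named probe.

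Transcription factors known to act on Spp1 in other settings went both ways. Of 29 listed, 17 had a named probe and 11 were tested, of which 2 rose, 2 fell and 7 did not pass. Over all 11763 tested probes 18.4% were higher and 18.4% lower, shares close to those of this list. Etv1 rose 3.82-fold (log2 1.93 ± 0.15, adjusted p = 0.000961), from 243.3, 271.5 and 282.1 on the controls to 850.6, 1118.6 and 1102.8 at 4, 13 and 40 ng/ml. At 4 ng/ml its change was 76.5% of the mean at the higher doses. A second Etv1 probe was dim, at 133.1 to 171 over the 6 arrays, with a log2 change of 0.05 (adjusted p = 0.178), so the 2 probes disagree. Ets2, another ETS factor, rose by 0.17 on the log2 scale (adjusted p = 0.0493), a call lost in 13 of 15 alternative settings, among them the fits that leave out control replicate 1, 2 or 3 or the arrays at 13 or 40 ng/ml (adjusted p from 0.0660 to 0.132).

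The regulators that fell were Tcf7l2, a transcription factor of Wnt signalling (log2 -0.30 ± 0.05, adjusted p = 0.00675), and Smad4, the shared Smad of TGF-beta and BMP signalling (log2 -0.14 ± 0.03, adjusted p = 0.0121). Smad4 no longer passed in 5 of 15 alternative settings, which were the highest dose left out (adjusted p = 0.0523), the quantile-normalised raw signal (0.172), normexp at an offset of 50 (0.202) or 16 (0.242) and a trended prior (0.210). Cebpb did not pass, with a log2 change of 0.45 (adjusted p = 0.0774). Control replicate 3 read 3454.2 for Cebpb against 2351.1 and 2153.8 on the other controls, and without it the change was 0.64 (adjusted p = 0.00483). Cebpb also passed with the quantile-normalised raw signal, both normexp offsets and the trended prior (adjusted p from 0.0243 to 0.0361). The AP-1 genes Junb (log2 -0.02, adjusted p = 0.939) and Fosl2 (-0.14, adjusted p = 0.312), Usf1, Usf2, Vdr and Hoxc8 did not pass either. Vdr passed with the lowest dose left out (log2 -0.17, adjusted p = 0.0226), and its second probe passed with all arrays (log2 -0.18, adjusted p = 0.00839). It also passed with the quantile-normalised raw signal, both normexp offsets and the trended prior (adjusted p from 0.0388 to 0.0444). Usf2 passed with normexp at an offset of 16 (log2 -0.23, adjusted p = 0.0462) and with no detection filter (-0.06, adjusted p = 0.0373). A second Usf2 probe did not pass in the main fit (log2 5.9e-05, adjusted p = 0.999). The probes of Runx2, Ets1, Myc, Lef1 and Pou2f1 were detected on 0 of 6 arrays and that of Sp1 on 2.

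Of 23 listed matricellular and integrin-binding matrix genes, 8 had a named probe and 6 were tested, of which 5 were detected in both groups. Ccn1, a matricellular protein induced by growth factors, rose 1.66-fold (log2 0.73 ± 0.08, adjusted p = 0.00249). Its raw signals were 795.6, 849.6 and 856.5 on the controls and 1179.6, 1319.7 and 1054.3 in order of dose. The log2 change of Ccn1 was smaller with the quantile-normalised raw signal (0.52) and with normexp at an offset of 50 (0.53) or 16 (0.55). The other 4 detected in both groups fell. Of all 11316 probes detected in both groups 18.1% were higher and 17.6% lower. Thbs2 (thrombospondin 2) fell by 1.38 and Fbln1 (fibulin 1) by 1.30 on the log2 scale. Fbln2 (fibulin 2) fell by 0.34 and Thbs1 (thrombospondin 1) by 0.30. With the quantile-normalised raw signal the log2 changes were -1.29 for Thbs2, -0.97 for Fbln1, -0.33 for Fbln2 and -0.47 for Thbs1. Postn (periostin), undetected on all FGF2 arrays, differed by at least 1.08-fold (adjusted p = 0.00387 in the fit with no detection filter). The call of Fbln2 ended without control replicate 1 (adjusted p = 0.0832), control replicate 3 (0.0760), the 13 ng/ml array (0.0796) or the 40 ng/ml array (0.0832), and with no detection filter (0.0750).

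Ccn1 was also among the listed genes with little difference between the doses, with log2 changes of 0.79, 0.80 and 0.61. Thbs1 had -0.28, -0.31 and -0.29. By contrast Fbln1 had -0.71 at 4 ng/ml and -1.63 and -1.56 at 13 and 40 ng/ml. A slope per log2 of dose among the FGF2 arrays passed for 0 of the 34 listed genes and 0% of all tested probes in limma. Before adjustment 10 of the 34 genes and 1236 of the 11763 probes had a p below 0.05.

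Of 19 listed genes of bone and mineral formation, 9 had a named probe and only 2 were bright enough to test. Col1a1, the main collagen of bone as well as of fibroblasts, fell 4.34-fold (log2 -2.12 ± 0.14, adjusted p = 0.000664). Mgp, which encodes an inhibitor of calcification, read 1453.7, 1398.3 and 1639 on the controls and 1124.2, 1386.6 and 1322.7 in order of dose. Its log2 change was -0.29 (adjusted p = 0.0621), and Mgp passed with the lowest dose left out (-0.19, adjusted p = 0.0344) or the highest (-0.37, adjusted p = 0.0320), and with scaling to the same median (-0.38, adjusted p = 0.0481). The alkaline phosphatase gene Alpl, the osteocalcin genes Bglap and Bglap2, Phospho1, Pth1r and Runx2 were among those detected on 0 of 6 arrays.

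Markers of other cell types that make osteopontin were mostly undetected. Of 18 macrophage markers 8 had a named probe. Cd68, Csf1r, Ptprc, Itgam, C1qa and C1qb were detected on 0 of 6 arrays. Lyz2 (lysozyme 2) fell 1.32-fold. Cd53, a tetraspanin of leukocytes, read 136.2, 116 and 142.8 on the controls, where it was undetected, and 312.4, 427.6 and 370 with FGF2. Its difference was at least 1.44-fold (adjusted p = 0.00656 for Cd53 in the fit with no detection filter). Summed over the 8 named markers, the signal above the array median was 354 to 431 on the controls and 434 to 534 on the FGF2 arrays. The highest control sum (431.2) and the lowest FGF2 sum (433.7) were close. Only 2 of the 8 markers were detected on any array, and of these Cd53 was brighter with FGF2 and Lyz2 dimmer. The sums therefore show no shift common to the markers. The part of these markers in the Spp1 signal was not tested.

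Epithelial and endothelial markers were as sparse. Of 10 epithelial markers 5 had a named probe. The claudin gene Cldn4, detected on 5 of 6 arrays, did not pass (log2 0.0008, adjusted p = 0.988). The keratin gene Krt18, undetected on the controls, differed by at least 1.12-fold (adjusted p = 0.0208 in the fit with no detection filter). Krt8, Krt19 and Elf3 were undetected on all 6 arrays. The summed signal of the 5 was 40.1 to 106 on the controls and 134 to 162 with FGF2. Only 2 of the 5, Krt18 and Cldn4, were detected on any array, and of these only Krt18 was called higher. This sum therefore shows no shift common to the epithelial markers. Of 11 endothelial markers 3 had a named probe, Pecam1 and Emcn were undetected on all 6 arrays, and Eng did not pass (log2 -0.08, adjusted p = 0.188). Their sum was 177 to 225 on the controls and 115 to 182 with FGF2. The sum over the 6 fibroblast markers was 32082 to 38952 on the controls and 19378 to 23218 with FGF2. Of these 6 genes the 3 collagen genes fell and Dcn, S100a4 and Prrx1 did not pass. Of all probes detected in both groups 17.6% were lower. Without control replicate 3 Dcn (log2 0.23, adjusted p = 0.0370) and Prrx1 (-0.47, adjusted p = 0.0117) did pass. Prrx1 also passed with scaling to the same median (log2 -0.47, adjusted p = 0.00423), the quantile-normalised raw signal, normexp at an offset of 50 and the trended prior (adjusted p up to 0.0451). A second, dimmer Dcn probe passed with all arrays (log2 0.35, adjusted p = 0.0361), and a second Prrx1 probe did not (log2 -0.25, adjusted p = 0.102). The part of these shifts in the Spp1 signal was not tested.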

How the data were processed

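RNA from 3 control and 3 FGF2-treated cultures was measured on 1-colour bead arrays. Per the file headers, the deposited files give a mean signal per probe (an intensity on a linear scale), a bead standard deviation in the same signal units and a detection score (a fraction from 0 to 1). Per the submitters' processing notes the tool was BeadStudio 1.0. The authors' value table, also an intensity, is a straight-line function of each treated array's signal (Pearson r = 1 across probes) and was used for fold changes as an alternative. The slope of that line differs between arrays, and no source used here states why.

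The signals were corrected and normalised with neqc (offset 16) in limma 3.58.1 with R 4.3.3, with the negative controls inferred from the detection scores. Probes with a score of at least 0.99 on at least 3 arrays were tested with lmFit and eBayes, two-sided, with Benjamini-Hochberg adjustment over 11763 probes. Fits that leave out an array of an arm assume that the remaining arrays vary alike. The procedure was run on simulated data in which all 3 FGF2 arrays had the same shift. That simulation did not cover differences between the doses. The number of arrays limits the precision.

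Probe numbers were matched to gene numbers in RefSeq annotation (GRCm38.p6), which named 8131 genes. The probe with the highest mean signal stood for a gene. Spp1, the gene lists, the comparisons and the naming rule were chosen with earlier results of these data known. Named genes are Spp1, listed genes with their values where tested, and the 10 genes nearest to Spp1. Noct, Phactr4, Rpl41 and CYTB were named outside this rule for their values. A gene undetected on one side is given a bound from the lowest normalised signal among detected probes. P-values measure the spread between these arrays, which on the FGF2 side includes any difference between the doses. Alternatives covered background, scaling, filter, prior, probe choice and each array left out. Values of a few genes are not reported here.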

Additional observations from a re-analysis of the deposited data

How the results depend on the processing

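The Spp1 log2 changes at 4, 13 and 40 ng/ml kept their sign in every setting tried. They were 2.41, 2.43 and 2.41 without background correction, 2.42, 2.44 and 2.42 with normexp at an offset of 50, and 2.43, 2.45 and 2.43 at an offset of 16. With scaling to the same median 13 ng/ml gave 2.58. The raw signals, added after seeing the data, gave 2.42, 2.62 and 2.39, and folds from the authors' deposited table came to 2.62 at 13 ng/ml and 2.57 at 40 ng/ml. The change at 4 ng/ml as a share of that at the higher doses was 96.6% for Spp1 with the raw signals. The median share over risen genes was 71.3% with normexp at an offset of 16, 65.8% with scaling to the same median, 66.1% with the raw signals and 66.0% with a minimum change of 0.5, and 66.6% to 70.6% without 1 control. Among probes detected on all 6 arrays 3 listed genes were higher in place of 7, since Mmp12, Cd53 and Krt18 were no longer tested and Ets2 had an adjusted p of 0.0515. Over genes detected in both groups, a count added after seeing the data, 4 were higher. Of all tested probes 4327 passed, against 2840 without control replicate 1, 2883 without the 13 ng/ml array and 2618 without the 40 ng/ml array. The slope on dose passed for 52 probes without background correction in place of 0. No paired analysis was done, since the labels link no treated culture to a control culture. The files give signal and not counts, so genes near the detection limit have bounds only.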
